A study of Mus musculus with 10 samples.

Results

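Interferon-stimulated and antigen presentation genes were followed in neurites (axons and dendrites) of mouse cortical neurons, collected from the underside of a porous membrane on which the cells were grown. The set was a list of 38 genes, and a gene was kept where its deposited value was above 0 in at least 2 of the 10 libraries. Of the list 36 genes were kept, among 45195 gene identifiers in the table, and they are called members here. Oas1a and Mx1, both antiviral enzymes, were listed at 0 in every library. RNA was measured by Smart-seq2, which copies poly(A) RNA and amplifies it from small amounts. Values are FPKM, fragments per length of transcript and per depth of the library. A further scaling of each library was inferred from the values and is not described in the sources used here.

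Neurons came from E16.5 embryos, either C57BL/6 wild type or Cpeb1 flox/flox on the C57BL/6 background. Cpeb1 encodes a cytoplasmic RNA-binding protein that acts on polyadenylation and translation. All cultures, wild type included, received AAV2 with Cre under the ubiquitous CAG promoter when plated, so the virus and Cre are shared by every group and no culture without them was analysed here. The membrane had 3 µm pores, and cell bodies were wiped off its upper side before lysis. In naive cultures the neurites were left intact until lysis on day 8. In injured cultures the underside of the membrane was scraped on day 7 and the neurites present 24 hours later were lysed, so that injury and the age of the neurites cannot be told apart. Wild type had 3 naive and 3 injured libraries, and the knockout had 2 of each. The labels do not say whether replicates were separate cultures, and the p-values therefore measure only the spread between these libraries.

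Interferons are secreted proteins that warn cells of infection. They bind receptors coupled to JAK kinases, which activate transcription factors. Complexes with IRF9 bind the interferon-stimulated response element (ISRE) before antiviral genes, while the response to interferon gamma acts through the gamma-activated sequence (GAS). In antigen presentation the proteasome cuts proteins to peptides, TAP carries them into the endoplasmic reticulum, and MHC class I heavy chains with beta-2 microglobulin show them at the cell surface. Neurons are known for low levels of MHC class I and for roles of these molecules at synapses.

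Promoter stretches of a few members described in the results are printed because they hold the motifs through which interferons are known to act. RefSeq windows from 250 bases before to 50 bases after each start site (GRCm38.p6) were matched by symbol for 31 of the 38 listed genes, and Mx1, Mx2, Usp18, Rtp4, Dhx58, Ifi27 and Parp14 had no entry. The ISRE was searched as GAAA, any 2 bases and GAAA again, and the GAS as TTCNNNGAA, both on either strand. An ISRE match lay in a window of 15 of the 31 genes (48.4%), against 3.99% of all 27025 genes with a window. A GAS match lay in 9 of the 31 (29.0%), against 9.55% of all genes. The list was drawn up as interferon-stimulated and antigen presentation genes, so these shares describe that choice and not the libraries. In the sequences below, written 5′ to 3′ on the strand of the gene, capitals mark the motif named on each line. A GAS match that overlaps the stretch of Ifitm3 is not marked. An ISRE on the reverse strand reads TTTC, 2 bases and TTTC.
B2m, ISRE, chr2:122147528-122147577, plus strand: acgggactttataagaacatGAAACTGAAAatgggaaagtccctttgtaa
Ifitm3, 2 ISRE matches just after the start site, chr7:141010716-141010742, minus strand: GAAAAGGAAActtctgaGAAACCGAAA
Ifit3, 2 ISRE matches, chr19:34583353-34583436, plus strand: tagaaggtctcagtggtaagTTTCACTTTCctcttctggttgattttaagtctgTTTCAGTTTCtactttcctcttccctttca
Gbp2, ISRE, chr3:142620594-142620623, plus strand: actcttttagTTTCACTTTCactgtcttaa
Irf1, GAS, chr11:53769904-53769952, plus strand: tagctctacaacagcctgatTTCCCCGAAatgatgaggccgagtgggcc
The windows of H2-K1 and H2-D1 held no match to either motif, which says only that these letters are not in those windows. A match is a description of letters and not a bound site.

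Most members were low in every group. Of the 36 members 22 were listed at 0 in at least 1 library, 14 were above 0 in all 10, and 12 had a median below 1. In all 10 libraries 9 members reached a value of 1, which is 26.5% of the 34 that passed the filter for testing, against 56.4% of all 15712 genes tested. To be tested a gene had to reach a value of 1 in 2 or more libraries, and Ifih1, a viral RNA sensor, and Parp14, an ADP-ribosyltransferase, did not reach it. Ifitm3, B2m, H2-D1 and Ifi27 held between 57.8% and 66.9% of the summed values of all members in each library. The highest medians over the 10 libraries were 100.4 for Ifitm3, a membrane protein that blocks the entry of viruses, and 97.6 for B2m, the shared light chain of MHC class I. The heat map of all members by library shows these as bright rows among many dark ones.

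**Figure D1:**
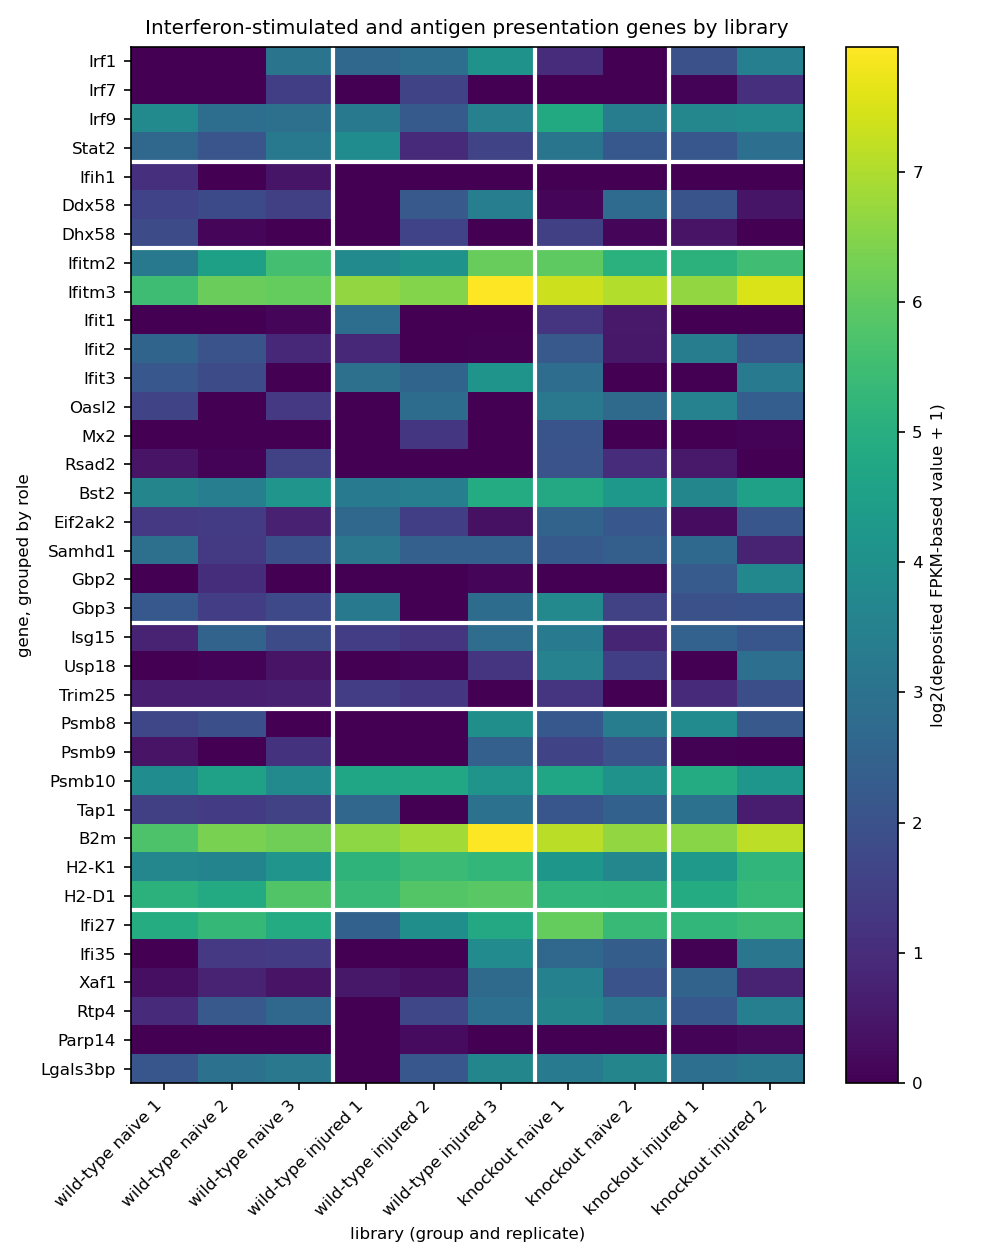
Deposited values of the 36 members in each of the 10 libraries, as log2(value + 1), with members in rows grouped by role and libraries in columns grouped by condition. Ifitm3 and B2m are the brightest rows, 22 rows hold at least 1 library listed at 0, and the third wild-type injured library holds the highest value of 13 rows.

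Estimated depth ranged from 21.4 to 27.96 in units of 1e6 fragments, and 1 fragment per kilobase of transcript was worth 0.0330 to 0.0576 in the deposited values. Wild-type injured replicate 3 stood apart, with a mean Pearson correlation of 0.839 with the other libraries against 0.867 to 0.898 for the rest. It also had the lowest estimated depth, the fewest genes that reached a value of 1, and the largest inferred scaling factor, 1.23. The next largest factor, 1.11, was that of the first knockout naive library. The part of this scaling in the values of the members was not tested. Cpeb1 itself read 7.16, 5.96 and 5.86 in naive and 1.65, 13.8 and 22.6 in injured wild type, and 5.97 and 0.356 in naive and 1.14 and 3.15 in injured knockout. The first library labelled knockout naive thus had a Cpeb1 level within the range of the wild-type naive libraries, and it is called the library labelled knockout naive replicate 1 below. Wild-type injured replicate 1, at 1.65, lay within the range of the knockout injured libraries. All 11 neuron markers had medians of at least 10. Of the 14 microglia and macrophage markers Cx3cr1, Tmem119, C1qc and Trem2 were listed at 0 in all libraries, and endothelial markers reached at most 5.16. In such bulk libraries fewer cells of a type and less RNA per cell cannot be told apart.

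The first comparison asked what injury did in wild-type neurites. MHC class I genes and Ifitm3 had higher values in the injured libraries, Ifi27 and Ifit2 lower ones, and no member passed the threshold of an adjusted p of 0.05 in limma, a linear model fitted across all genes. That threshold was passed by 149 genes, or 0.948% of those tested. At an unadjusted p under 0.05 there were 6 members of 34, 4 higher and 2 lower, beside 13.9% of all genes, or 7.66% for the higher ones. The log2 fold change, taken throughout as the difference of group means of log2(value + 1), was above 0 for 24 of 34 members, beside 50.6% of all genes, with a median of 0.23 against 0.0092 for all genes. Without wild-type injured replicate 3 it was above 0 for 15 of the 34, with a median of -0.15. With all libraries but a pseudocount of 0.1, that is 0.1 added in place of 1, it was above 0 for 17, with a median of -0.020. The sign of the median thus depended on that library and on the pseudocount. The groups did not overlap for 4 members that were higher (Ifitm3, Ifit3, B2m and H2-K1), beside 9.78% of all genes, and for 3 that were lower (Ifit2, Rsad2 and Ifi27), beside 8.02%.

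H2-K1, a classical MHC class I heavy chain (ENSMUSG00000061232, chr17:33996017-34000347 in mm10, minus strand), showed the clearest separation. It read 11.96, 11.0 and 16.6 in naive wild-type libraries, and after injury 34.9, 41.8 and 37.8. The means were 13.2 ± 2.97 (SD, n = 3) and 38.2 ± 3.47 (SD, n = 3), and every injured library lay well above every naive one. The log2 fold change was 1.48 ± 0.34 (SE), higher in 3 of 3 injured libraries, with an adjusted p of 0.0596 in limma. Under 21 alternatives the log2 fold change lay between 1.202 and 1.65 and the adjusted p between 0.0467 and 0.218, and with a minimum value of 5 in place of 1, which leaves fewer genes to adjust over, it passed at 0.0467. It was the one member that passed in any comparison under any of these alternatives.

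B2m, the partner of H2-K1, read 51.9, 81.0 and 73.5 in wild-type naive and 95.5, 114 and 243 in wild-type injured libraries. All injured libraries were above all naive ones, and the third injured library was more than the sum of the other two. The difference on the log2 scale was 1.02 ± 0.33 (SE) with an adjusted p of 0.193 in limma, and 0.62 without that library. H2-D1, the other classical heavy chain measured, read 33.5, 27.9 and 54.8 before and 39.96, 55.96 and 59.97 after injury. These ranges overlapped, and the log2 fold change of 0.45 ± 0.29 had an adjusted p of 0.531 in limma. Over the 7 genes of antigen processing and MHC class I the log2 fold change was above 0 for all 7, beside 50.6% of all genes, with a median of 0.44, and none passed. Without wild-type injured replicate 3 it was above 0 for 4 of the 7, with a median of 0.34.

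Among antiviral effectors Ifitm3 read 43.5, 69.8 and 66.7 in wild-type naive and 100.4, 88.4 and 248 in wild-type injured libraries. The groups did not overlap, and the third injured library was again far the highest. On the log2 scale the difference was 1.13 ± 0.36 (SE) with an adjusted p of 0.191 in limma, and 0.67 without that library. Ifit3, of the IFIT family that binds foreign RNA, read 3.44, 2.51 and 0 against 6.61, 4.91 and 16.2. Its relative Ifit2 went the other way, with 4.90, 3.07 and 0.847 against 0.844, 0 and 0.0370, a log2 fold change of -1.51 ± 0.67 and an adjusted p of 0.338 in limma. So 2 neighbouring members of 1 family separated the groups in opposite directions at low levels. Rsad2, the antiviral enzyme viperin, read 0.342, 0.0450 and 1.99 in naive libraries and was listed at 0 in all 3 injured ones.

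Irf1, a transcription factor that responds strongly to interferon gamma, was listed at 0 in 2 wild-type naive libraries and read 7.43 in the third, against 5.34, 6.26 and 15.5 after injury. The naive library at 7.43 lay inside the injured range, and the log2 fold change was 2.17 ± 0.84 (SE) with an adjusted p of 0.277 in limma. Ifi27, which encodes a small mitochondrial membrane protein, was the highest member with lower values after injury. It read 29.4, 38.0 and 29.0 in naive and 4.51, 14.4 and 26.6 in injured libraries, without overlap. Its log2 fold change was -1.31 ± 0.47 with an adjusted p of 0.248 in limma, and it ranged from -0.67 without wild-type injured replicate 1 to -1.83 without wild-type injured replicate 3. The plot of 8 members by group shows both the tight separation of H2-K1 and the single high library behind the means of B2m and Ifitm3.

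**Figure D2:**
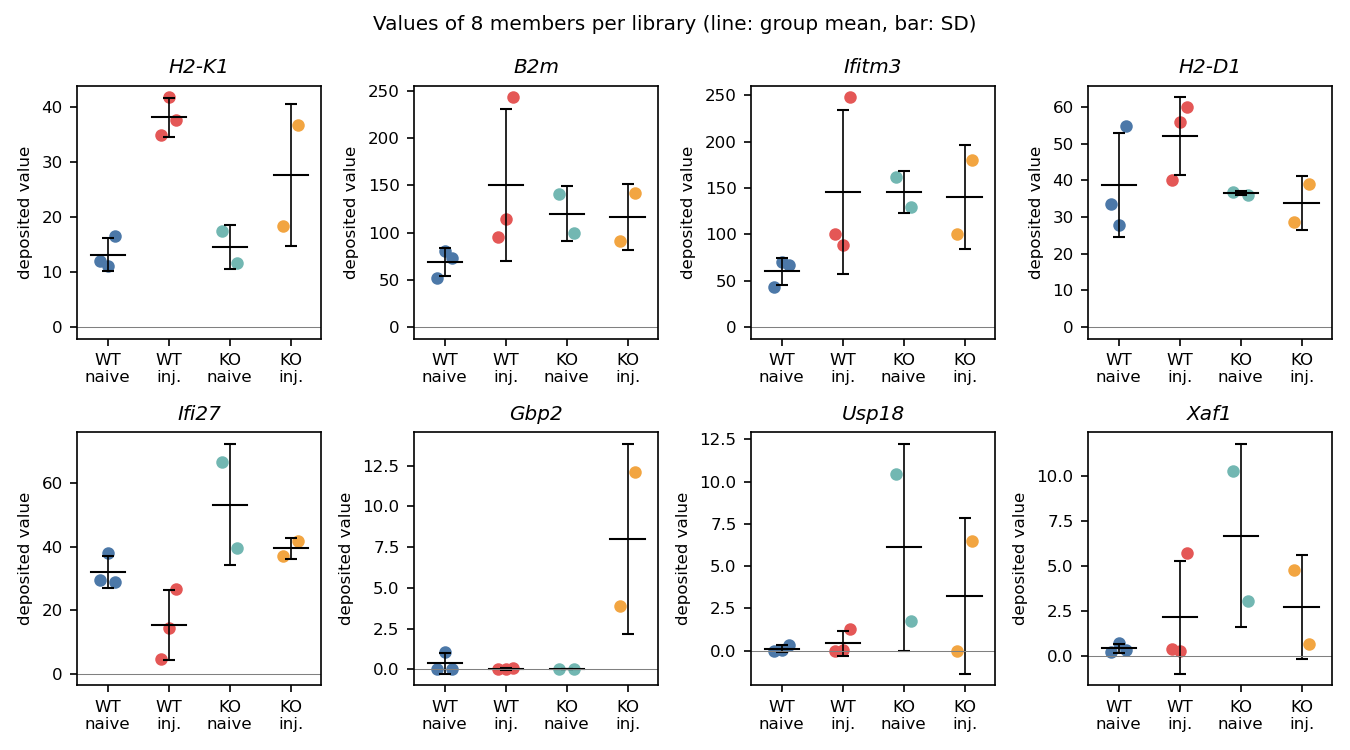
Deposited values of 8 members, 1 panel each, with 1 point per library in 4 groups (WT, wild type; KO, knockout; inj., injured), the horizontal line at the group mean and the bar showing the SD. H2-K1 lies at 34.9 to 41.8 in all 3 wild-type injured libraries against 11.0 to 16.6 in the naive ones, while 1 library reaches 243 for B2m and 248 for Ifitm3.

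Markers of other cells also moved with injury in wild type. The summed level of the 11 astrocyte markers was 486 to 676 in naive and 831 to 1887 in injured libraries, the highest being wild-type injured replicate 3, and at least 10 of the 11 were above 0 in each. Sox9, 1 of these markers, rose by 1.87 ± 0.30 (SE) on the log2 scale with an adjusted p of 0.0142 in limma. At an unadjusted p under 0.05, 7 of the 11 astrocyte markers were higher, beside 7.66% of all genes. The summed neuron markers were 4070 to 4591 in naive and 2811 to 3698 in injured libraries, and the 14 microglia and macrophage markers summed to 3.22 to 13.8 and 10.7 to 17.2. Oligodendrocyte lineage markers summed to 158 to 176 in naive and 162 to 405 in injured libraries. T and B lymphocyte markers summed to 9.88 in wild-type injured replicate 3 and to at most 0.751 in the other libraries. Of 7 RNAs known to be retained in the nucleus 3 had a log2 fold change above 0, with a median of -0.052. Rn7sk and Malat1 passed as higher in limma, and 1 of the 7 was lower at an unadjusted p under 0.05. Rn7sk is a small RNA that holds back a transcription elongation factor, and every injured library was above every naive one for both RNAs. Rn7sk read 23.4, 21.5 and 7.31 in naive and 589, 263 and 481 in injured libraries, a log2 fold change of 4.67 ± 0.55 (SE) with an adjusted p of 0.00176 in limma. Malat1 read 2603, 3440 and 1856 against 6633, 5818 and 5513, with 1.23 ± 0.26 and 0.0455. The part of these shifts in the values of the members was not tested.

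In knockout neurites the comparison of injured with naive libraries called no member. It called 9 genes in all with limma, or 0.0573% of those tested, and 2 of 34 members, 1 higher and 1 lower, had an unadjusted p under 0.05 beside 5.73% of all genes, or 1.68% for the higher ones. The log2 fold change was above 0 for 11 of 34 members, beside 42.0% of all genes, and the median was -0.28 against -0.087 for all genes. Without the library labelled knockout naive replicate 1 the median was 0.054. The groups did not overlap for 4 members that were higher (Irf1, Irf7, Gbp2 and H2-K1), beside 13.5% of all genes, and for 5 that were lower (Ifit1, Rsad2, Eif2ak2, Psmb9 and Lgals3bp), beside 22.1%.

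Gbp2, a guanylate-binding protein that acts on intracellular pathogens, was the member with the smallest p. It was listed at 0 in both knockout naive libraries and read 3.88 and 12.1 in the knockout injured ones. The adjusted p was 0.252 in limma, and no fold is given against a group at 0. Of the other libraries only wild-type naive replicate 2 reached a value of 1, at 1.07. Gbp2 thus passed the filter for testing only through the group where it was high, and its p is no independent support. H2-K1 read 17.4 and 11.7 in naive and 18.5 and 36.9 in injured knockout libraries. The first injured library was barely above the higher naive one, and the log2 fold change of 0.83 ± 0.41 (SE) had an adjusted p of 0.90 in limma. It was 0.35 without knockout injured replicate 2.

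Irf1 read 1.01 and 0 in naive and 2.96 and 9.70 in injured knockout libraries, a log2 fold change of 2.20 ± 1.03 (SE) with an adjusted p of 0.873 in limma. In both genotypes, then, the injured libraries of Irf1 had the higher mean, from low levels. Psmb9, an inducible catalytic subunit of the immunoproteasome, read 2.11 and 3.12 in naive and 0.0360 and 0 in injured knockout libraries. Its log2 fold change was -1.81 ± 0.81 (SE) with an adjusted p of 0.861 in limma. B2m and Ifitm3 showed no separation here, with 141 and 99.7 against 91.5 and 141 for B2m, and 161 and 129.8 against 100.3 and 179.9 for Ifitm3.

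Markers differed between these libraries too. The microglia and macrophage sums were 95.01 and 44.9 in naive and 4.28 and 38.2 in injured knockout libraries. Of the 8 tested markers 1 had a log2 fold change above 0, beside 42.0% of all genes, with a median of -1.08, and none passed in limma. The direction was thus opposite to that of the astrocyte sums. The astrocyte sums were 704 and 584 in naive and 858 and 934 in injured libraries, and the neuron sums 5214 and 4748 against 4765 and 3669. Of the 7 nuclear RNAs 2 had a log2 fold change above 0, with a median of -0.32. Rn7sk read 13.5 and 7.08 against 57.4 and 279.7, a log2 fold change of 3.56 ± 0.68 (SE) with an adjusted p of 0.132 in limma. The part of these shifts in the values of the members was not tested.

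The third comparison set knockout against wild type in naive neurites, where the median of the members lay farthest from that of all genes. Antiviral effectors, genes of antigen processing and other interferon-stimulated genes mostly had higher values in the libraries labelled knockout. The signalling factors and viral RNA sensors did not. Of the tested signalling factors 1 of 4 had a log2 fold change above 0, with a median of -0.26. Of the sensors it was 1 of 2, with a median of 0.0034. No member passed in limma, where 23 genes or 0.146% of those tested did, and all adjusted p-values of members were 1. At an unadjusted p under 0.05 there were 5 members, all higher, beside 2.7% of all genes higher and 3.76% in either direction. The log2 fold change was above 0 for 26 of 34 members, beside 55.4% of all genes, with a median of 0.79 against 0.063 for all genes. For 15 members, or 44.1%, both knockout libraries lay above all 3 wild-type libraries, beside 14.1% of all genes, and for none did both lie below, beside 8.51%.

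That difference leaned on the library labelled knockout naive replicate 1. Without it the median was 0.33 and no member had an unadjusted p under 0.05. With the filter applied anew without that library, 32 members were tested. Their log2 fold change was above 0 for 19, beside 52.3% of all genes. The counts by library that follow keep the 34 members that passed with all libraries. With the other knockout naive library alone, 16 of the 34 lay above all wild-type naive libraries, beside 27.3% of all genes. Ifit1, 1 of the 16 at 0.444, did not pass the filter applied anew. Below all wild-type naive libraries lay 2 members, Ifit2 and Trim25, beside 20.1% of all genes. With the library labelled knockout naive replicate 1 alone, 25 members lay above, or 73.5%, beside 32.3% of all genes, and the median was 1.06. Then 1 member, Ddx58, lay below, beside 19.9% of all genes. The members higher in both included Ifitm3, Bst2, Oasl2, Usp18, Psmb8, Psmb9, Tap1, B2m, Ifi27, Xaf1 and Rtp4.

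Ifitm3 read 161 and 129.8 in the knockout naive libraries, against 43.5, 69.8 and 66.7 in wild type. Both knockout values were far above the wild-type range, and the log2 fold change was 1.29 ± 0.40 (SE) with an adjusted p of 1 in limma. B2m read 141 and 99.7 against 51.9, 81.0 and 73.5, a log2 fold change of 0.80 ± 0.37. For both heavy chains the groups overlapped, as H2-D1 read 36.9 and 36.1 against 33.5, 27.9 and 54.8, and H2-K1 read 17.4 and 11.7 against 11.96, 11.0 and 16.6.

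Usp18, which removes ISG15 from proteins and dampens the interferon receptor, read 10.4 and 1.79 in the knockout naive libraries against 0, 0.0450 and 0.345. Its log2 fold change was 2.33 ± 0.85 (SE) with an adjusted p of 1 in limma, and 1.31 without the library labelled knockout naive replicate 1. Xaf1, a factor known for promoting apoptosis, read 10.3 and 3.09 against 0.254, 0.712 and 0.345, a log2 fold change of 2.26 ± 0.84 that was 1.52 without that library. Oasl2, of the oligoadenylate synthetase family, read 8.01 and 5.67 against 2.09, 0 and 1.49, with a log2 fold change of 1.97 ± 0.89. For these 3 genes both knockout libraries were above every wild-type one, and the first was always the higher.

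**Figure D3:**
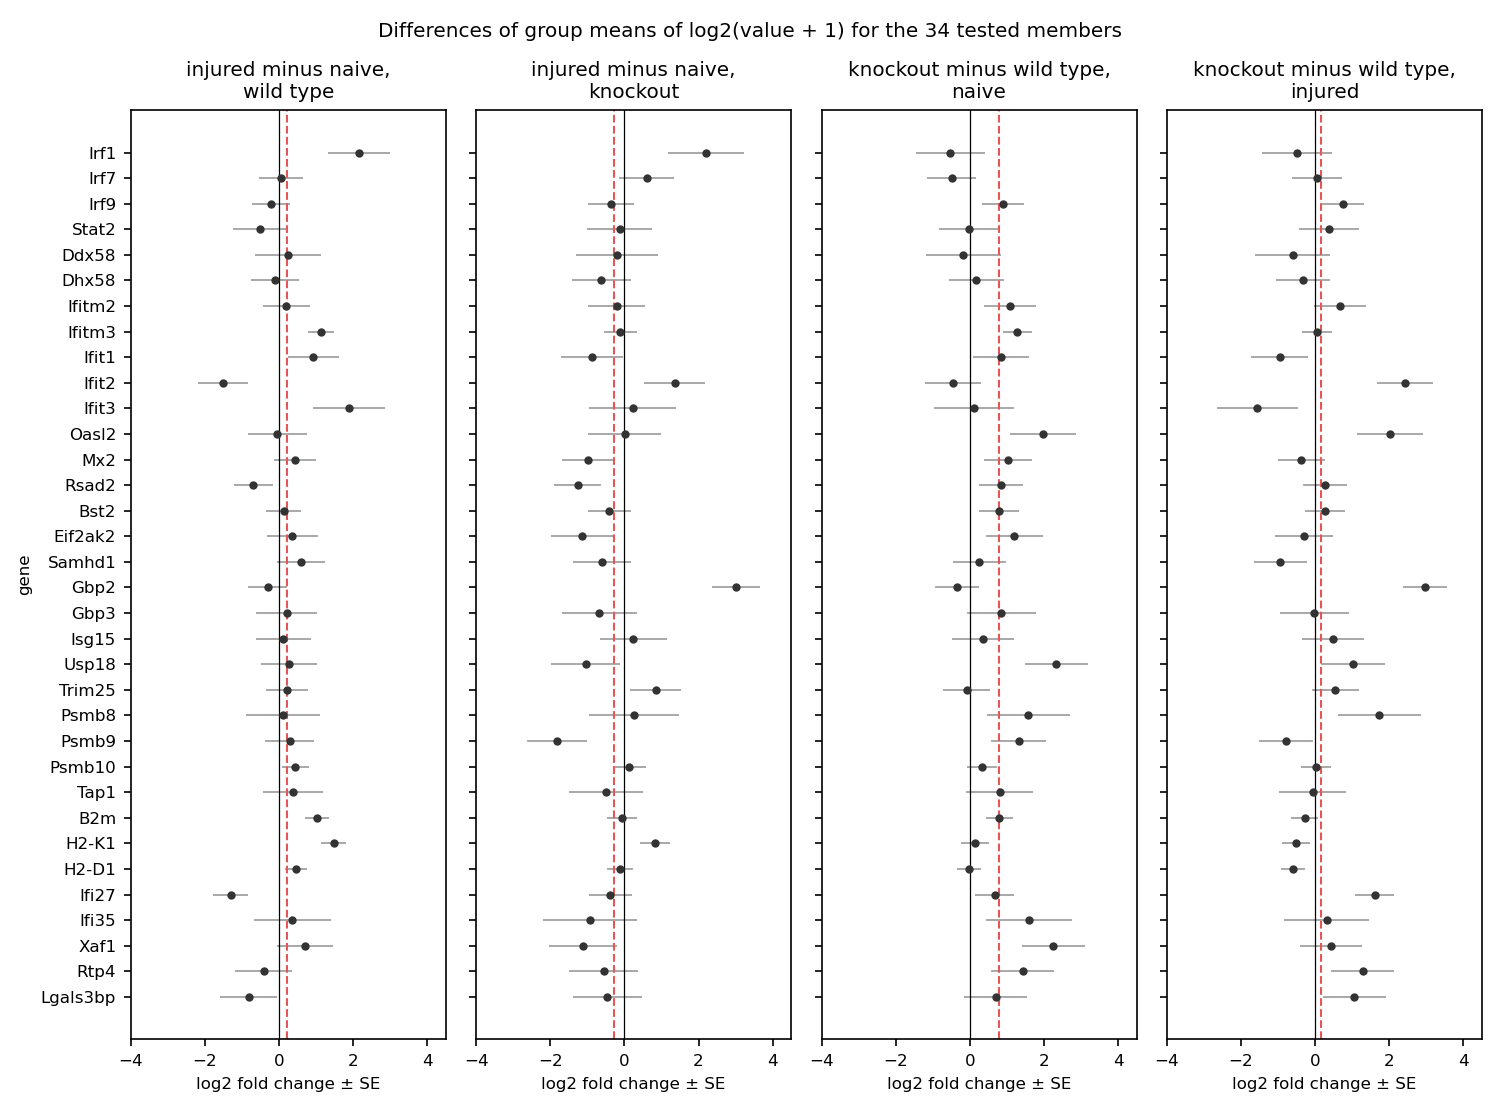
Log2 fold change of the 34 tested members in 4 comparisons, with points at the difference of group means of log2(value + 1), bars showing the SE, and the red dashed line at the median of the members. The median is 0.79 for knockout minus wild type in naive neurites, against 0.23, -0.28 and 0.16 in the other panels, and no member passed an adjusted p of 0.05.

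Microglia and macrophage markers were also higher in the libraries labelled knockout naive. Their summed level over 14 markers was 95.01 and 44.9 there, with 5 and 9 of them above 0, against 3.22, 7.25 and 13.8 in wild-type naive libraries, with 2 to 6 above 0. Fcer1g read 46.5 and 9.05 against 0, 2.24 and 2.402, and Tyrobp 30.9 and 11.9 against 0, 0.982 and 5.74. Cx3cr1, Tmem119, C1qc and Trem2, which mark the same cells, were at 0 throughout. The astrocyte sums were 704 and 584 against 486 to 676. The part of microglia and macrophage RNA in the values of the members was not tested.

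**Figure D4:**
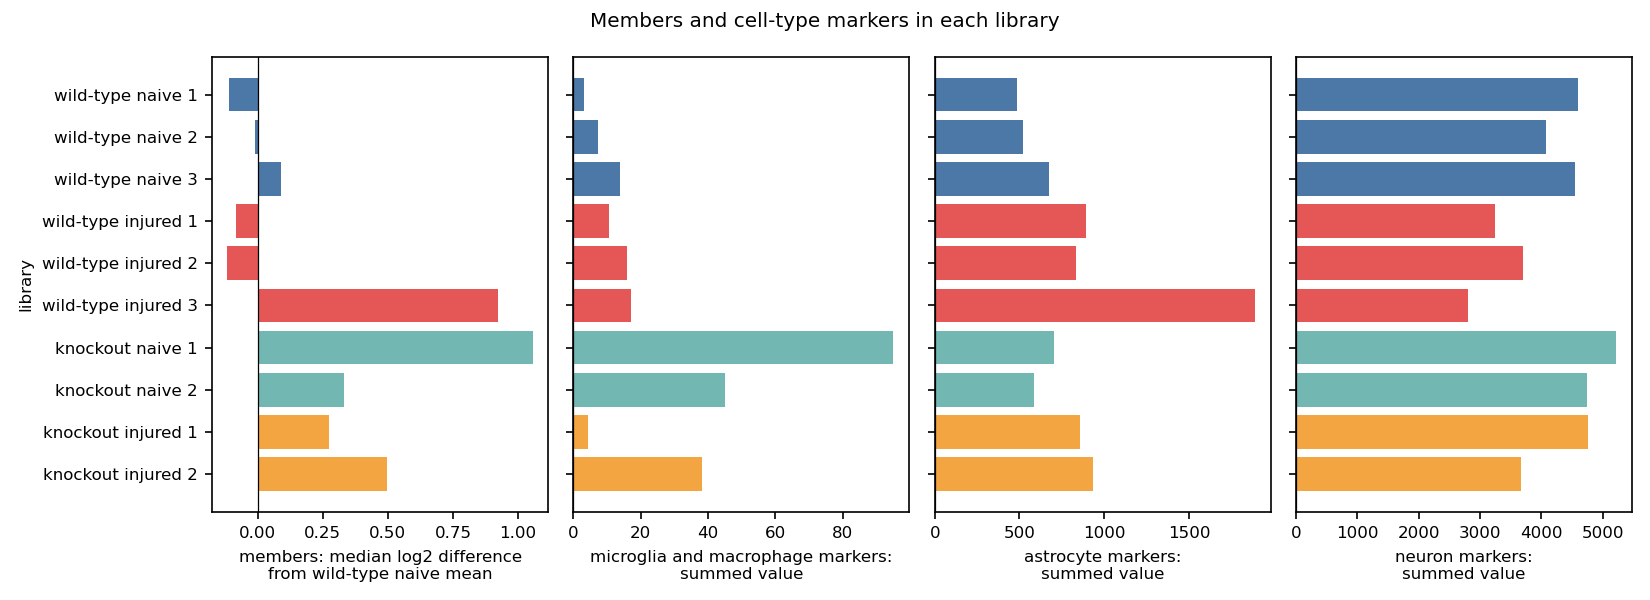
Per library, from left, the median over the members of the log2 difference from the wild-type naive mean, and the summed values of the microglia and macrophage, astrocyte and neuron markers. The members' median is 1.06 in the library labelled knockout naive replicate 1, which also has the highest microglia and macrophage sum of 95.01, and 0.92 in wild-type injured replicate 3, which has the highest astrocyte sum of 1887.

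In injured neurites the genotypes differed for no member at an adjusted p of 0.05 in limma, where 41 genes or 0.261% of those tested passed. At an unadjusted p under 0.05 there were 4 members, all higher in the knockout, beside 4.5% of all genes higher and 10.5% in either direction. The log2 fold change was above 0 for 20 of 34 members, beside 45.7% of all genes, with a median of 0.16 against -0.049. The groups did not overlap for 4 members higher in the knockout (Irf9, Ifit2, Gbp2 and Ifi27), beside 9.72% of all genes, and for 1 that was lower (H2-D1), beside 12.2%. Without wild-type injured replicate 3 the 4 became 12 of 34, beside 16.0% of all genes, and the median was 0.32.

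Gbp2 was listed at 0 in 2 wild-type injured libraries and read 0.0990 in the third, against 3.88 and 12.1 in the knockout. It passed the filter for testing only through the knockout injured libraries, so its p is not independent of that choice. Both knockout libraries were above all wild-type ones, and the log2 fold change of 2.96 ± 0.59 (SE) had an adjusted p of 0.0708 in limma. Without knockout injured replicate 2 it was 2.24 with an adjusted p of 0.358, and over its alternatives the adjusted p ranged from 0.0546 to 0.509. The log2 fold change depends on the pseudocount, since wild type is at or near 0, and ranged from 1.29 to 5.79. Ifit2 read 0.844, 0 and 0.0370 in wild type against 9.16 and 3.33, a log2 fold change of 2.42 ± 0.75 with an adjusted p of 0.294 in limma. Ifi27 read 4.51, 14.4 and 26.6 against 37.1 and 41.9, a log2 fold change of 1.61 ± 0.53 with an adjusted p of 0.316 in limma, and 0.97 without wild-type injured replicate 1.

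In the other direction H2-D1 read 39.96, 55.96 and 59.97 in wild-type injured libraries against 28.6 and 39.1 in the knockout. The gap between the nearest libraries was small, and the log2 fold change of -0.60 ± 0.33 (SE) had an adjusted p of 0.558 in limma. This comparison and that in naive neurites use different libraries, but each shares its libraries with an injury comparison. The microglia and macrophage sums were 10.7 to 17.2 in wild-type injured and 4.28 and 38.2 in knockout injured libraries, the latter with 3 and 7 of the 14 markers above 0. The astrocyte sums were 831 to 1887 against 858 and 934. Of the 11 astrocyte markers 3 were lower in the knockout at an unadjusted p under 0.05, beside 10.5% of all genes in either direction. Malat1 was lower in the knockout, at 1236 and 2424 against 5513 to 6633, with a log2 fold change of -1.79 ± 0.29 (SE) and an adjusted p of 0.02002 in limma. Malat1 is a long nuclear RNA, and both knockout libraries were below all wild-type ones. The neuron marker Tubb3 read 927 and 1291 in the knockout against 305 to 751, a log2 fold change of 1.19 ± 0.29 with an adjusted p of 0.170 in limma. It had the smallest p of 11 neuron markers, which went both ways. Their log2 fold change was above 0 for 6 of the 11, beside 45.7% of all genes, with a median of 0.15. At an unadjusted p under 0.05, 3 were higher and 1 lower, beside 10.5% of all genes in either direction. The neuron sums were 4765 and 3669 in the knockout against 2811 to 3698. The part of these differences in the values of the members was not tested.

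The interaction asked whether the effect of injury differed between the genotypes. Limma called no gene, 0% of the 15712, while 979 genes or 6.23% had an unadjusted p under 0.05, and 3 members did. These were Gbp2 with 3.31 ± 0.83 (SE) and an adjusted p of 0.698, Ifit2 with 2.87 ± 1.06 and 0.791, and Ifitm3 with -1.24 ± 0.57 and 0.80. A positive value means a more positive injury effect in the knockout. The value of Gbp2 depends on the pseudocount, since both knockout naive libraries are at 0, and it ranged from 1.39 to 6.98 over its alternatives. As stated above, Gbp2 was tested only through the knockout injured libraries. The value was above 0 for 11 of 34 members, beside 43.2% of all genes, with a median of -0.52 against -0.13. The median was -0.017 without the library labelled knockout naive replicate 1, and 0.18 without that library and wild-type injured replicate 3 together, an alternative chosen after seeing the data, so its sign rested on those libraries.

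The remaining members are described by role, starting with signalling. Irf9, a DNA-binding factor of the interferon response, read 12.8, 6.35 and 6.59 in naive and 8.33, 3.74 and 10.1 in injured wild type, and 27.3 and 9.23 in naive and 11.9 and 12.7 in injured knockout. Its highest value was in the library labelled knockout naive replicate 1, and both knockout injured libraries were above the wild-type injured ones. Stat2 read 5.43, 3.32 and 8.34, then 13.5, 0.966 and 2.11, then 7.58 and 3.61, then 3.44 and 6.47 in the same order of groups. The spread within the wild-type injured group exceeded any difference between groups. Irf7, the factor that amplifies interferon production, was listed at 0 in 6 of 10 libraries and reached at most 2.11.

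The cytoplasmic sensors of viral RNA were low. Ddx58, which encodes RIG-I and was above 0 in 9 of 10 libraries, read 2.001, 2.47 and 1.86 in naive and 0, 3.62 and 9.57 in injured wild type, and 0.0880 and 5.95 in naive and 3.19 and 0.369 in injured knockout. The 3 wild-type naive libraries were close together and the other groups each spread around them. Dhx58, a related helicase without a signalling domain, reached at most 2.58, and Ifih1, which encodes MDA5, was above 0 in 2 wild-type naive libraries alone, at 1.14 and 0.374. Neither tested sensor had an unadjusted p under 0.05 in any comparison.

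Among the remaining effectors Ifitm2, a relative of Ifitm3, read 8.32, 22.1 and 46.5 in naive and 12.6, 15.6 and 67.4 in injured wild type, and 61.8 and 33.0 in naive and 33.8 and 44.95 in injured knockout. Within each wild-type group the third library was the highest for Ifitm2. Bst2, or tetherin, which holds budding viruses at the membrane, read 11.3, 9.59 and 16.7, then 8.42, 9.58 and 28.7, then 26.7 and 17.8, then 11.6 and 22.6. Both libraries labelled knockout naive were above the wild-type naive range, and the third wild-type injured library was the highest of all. Of the 15 listed effectors 13 were tested. Their median log2 fold change was 0.20 for injury in wild type, -0.40 for injury in the knockout, 0.84 for genotype in naive and 0.046 for genotype in injured neurites.

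Isg15, a ubiquitin-like protein that is joined to other proteins, read 0.713, 4.84 and 2.53 in naive and 1.73, 1.32 and 6.12 in injured wild type, and 8.80 and 0.780 in naive and 4.62 and 3.36 in injured knockout. Every group overlapped every other. Usp18, its protease, read 0, 0.0620 and 1.29 in wild-type injured and 0 and 6.48 in knockout injured libraries, so the 2 knockout injured libraries disagreed. Trim25, a ubiquitin ligase that activates RIG-I, stayed between 0 and 2.75.

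In antigen processing the inducible proteasome subunits stood well below their constitutive counterparts on the FPKM scale, which is per length. Psmb8 was 0% to 3.99% of Psmb5 over the 10 libraries, Psmb9 was 0% to 0.972% of Psmb6, and Psmb10 was 8.20% to 20.9% of Psmb7. Psmb10 was thus the inducible subunit nearest to its counterpart, and its values of 12.9 to 28.7 overlapped between all groups. Psmb8 read 2.22, 2.86 and 0 in naive and 0, 0 and 14.5 in injured wild type, and 3.60 and 9.35 in naive and 13.4 and 3.71 in injured knockout. Tap1, a subunit of the peptide transporter, read 1.84, 1.68 and 1.95 in wild-type naive libraries and 5.18, 0 and 6.93 after injury. Both genes had their highest wild-type value in wild-type injured replicate 3.

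Of the other interferon-stimulated members, 5 of 6 were tested, and all 5 had a log2 fold change above 0 for genotype in naive neurites, with a median of 1.42. Both libraries labelled knockout naive were above the wild-type ones for each of the 5, beside 14.1% of all genes. Without the library labelled knockout naive replicate 1 the median was 1.18. The microglia and macrophage sums were also higher in both libraries, as given above. Rtp4, a chaperone of receptors, read 11.2 and 7.76 there against 0.927, 3.63 and 5.47. Lgals3bp, a secreted galectin-binding glycoprotein, read 8.82 and 11.4 against 3.37, 6.92 and 8.06. After injury in wild type these 2 genes spread from 0 to 6.51 and from 0 to 11.6. In every one of these comparisons the adjusted p in limma was above the threshold.

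Beyond the members, 92 genes of the same pathways were listed, and 64 were tested. In limma 1 passed in any comparison. Cd47, a surface protein that restrains phagocytosis and does not load class I peptides itself, read 67.5, 71.5 and 102 in wild-type naive and 27.8, 39.3 and 21.2 in wild-type injured libraries. It fell by 1.43 ± 0.27 (SE) on the log2 scale with an adjusted p of 0.0304. In the knockout it read 92.2 and 104 against 42.8 and 31.7, with a log2 fold change of -1.39 ± 0.33 and an adjusted p of 0.367. The call in wild type was lost with no filter on low values (0.0735), without a trend (0.136), when fitting only the groups compared (0.0656), and on leaving out any single naive library of either genotype or the first or the third injured one of wild type, with adjusted p-values of 0.0502 to 0.137 in limma. Over all 21 alternatives it ranged from 0.0132 to 0.137.

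The interferon ligand genes looked up, Ifnb1, Ifna4 and Ifng, were listed at 0 in all 10 libraries. Other interferon genes were not looked up. Of 18 genes for ligands, receptors and JAK-STAT signalling 13 were tested and 0 passed.

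Of 15 adaptors of nucleic acid sensing 12 were tested and 0 passed. Mavs, the mitochondrial adaptor of RIG-I, read 1.52, 0 and 0 in wild-type naive and 3.33, 12.3 and 5.84 in wild-type injured libraries, without overlap. Its log2 fold change was 2.43 ± 0.61 (SE) with an adjusted p of 0.0945 in limma. Of the 33 other interferon-stimulated genes listed 18 were tested and 0 passed. For genotype in naive neurites 12 of the 18 had a log2 fold change above 0, beside 55.4% of all genes. Their median was 0.22, against 0.79 for the members. Over the 64 tested pathway genes 41 were above 0, with a median of 0.14. Ccl5, a chemokine, was listed at 0 in all 6 wild-type libraries and read 11.6 and 2.19 in naive and 3.55 and 0 in injured knockout libraries, with an adjusted p of 0.751 in limma for genotype in naive neurites. Of 16 genes of class I loading 15 were tested and Cd47 alone passed, of 7 MHC class II genes 3 were tested, and the 3 constitutive proteasome subunits were tested, with 0 passing in the last 2 lists. H2-DMa, a class II peptide editor, had the smallest p of its list in 4 of 5 comparisons and read between 0.734 and 10.2, with overlap in each.

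Some members share sequence with other genes, which makes the assignment of reads uncertain. A copy with at least 95% identity over at least 150 nt was found for 11 of the 38 listed genes. Xaf1 had the most such genes, 23, followed by Samhd1 with 19. H2-K1 had 8 such genes, among them H2-D1 at 96.1% over 203 nt, and H2-D1 had 5. Ifit3 matched Ifit3b at 97.8% over 1700 nt, Mx1 matched Mx2, and Oas1a matched Oas1g at 97.6%. Exons of 14 members overlapped those of another gene on either strand, 40.9% of exon bases for Ifitm2 and 14.7% for Psmb8, and Psmb9 and Tap1 overlapped each other. Since these libraries carry no strand information, reads in such stretches cannot be told apart. Ifitm3, B2m and Ifi27 had neither a copy nor an overlap by these criteria.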

How the data were processed

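RNA-seq of neurites was analysed in 10 libraries of 4 groups taken from the labels. The values deposited by the authors were used as FPKM. STAR 2.4.2a, RSEM 1.2.21 and mm10 are named per the submitters' processing notes, and the further scaling is not given in the sources used here. In every library 100% of values were whole multiples of 0.01 times 1 factor, to a tolerance of 0.001, and the factors ranged from 0.901 to 1.23. No counts were used and no counting error is given. Depth was estimated from regular steps in the values and is approximate. The labels' protocols give 1 ng of RNA, 14 cycles of PCR, and 500 pg of cDNA with 11 further cycles. Of the gene identifiers 44548 matched GENCODE M21, which gave names and positions.

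Tests were made in R 4.3.3 with limma 3.58.1 after adding 1 to each value and taking log2, and used eBayes with its trend option. A single fit of all libraries held 4 group means and left 6 residual degrees of freedom, over 15712 genes that reached a value of 1 in 2 or more libraries. Benjamini-Hochberg adjustment was over all genes within each of 5 comparisons, and every adjusted p in the text is from limma. The script was tested on simulated data. Replicate numbers were not used as a block, because the labels do not say what they share. Correlations of deviations from group means were -0.048 to 0.041 over 13 same-numbered pairs and -0.051 to 0.051 over 24 other pairs. In a knockout group of 2 libraries the deviations mirror each other, so the pairs are not independent.

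The members and gene lists were chosen with earlier results of these data known, so no test over a list was made. Named members are the 3 smallest p in each comparison and, per role, the 2 highest means and the widest spread of group means. Named pathway genes are those that passed, or else the smallest p of a list. For 1 list that gene is not reported here. The comparisons of further members were chosen after their values were seen, as were the printed sequences other than those of B2m, Ifitm3 and Irf1. Tables and figures used python 3.11.15, numpy 2.4.6, pandas 2.3.3 and matplotlib 3.10.9.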

Additional observations from a re-analysis of the deposited data

How the results depend on the processing

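The number of genes called for injury in wild type, 149 as reported, was 43 with no filter on low values, 77 without a mean-variance trend, 90 when fitting only the groups compared, 63 without the library labelled knockout naive replicate 1 and wild-type injured replicate 3 together, and 35 to 311 leaving out 1 library. For injury in the knockout, 9 as reported, it was 1 with a pseudocount of 0.1, 18 with no filter, 4 after quantile normalization, 1 without a trend, 5 with the replicate block, 0 when fitting only the groups compared, and 0 to 20 leaving out 1 library. For genotype it was 51 with no filter in naive neurites, 17 to 27 leaving out 1 library there, and 24 to 57 in injured neurites. For the interaction it was 3 without a trend and 0 to 2 leaving out 1 library. The count of members called was 1 for injury in wild type with a minimum value of 5, which was H2-K1, and 0 under the other alternatives and comparisons, the replicate block included. The members' median log2 fold change for genotype was 0.64 in injured neurites with a pseudocount of 0.1, and in naive neurites 0.37 with a pseudocount of 5 and 0.33 without the same pair of libraries. For the interaction it was -0.073 with equal column totals and 0.18 without that pair. For injury in wild type it was -0.19 without that pair and -0.020 with a pseudocount of 0.1. Leaving out 1 library moved the median from -0.15 to 0.39 for injury in wild type, from -0.61 to 0.054 for injury in the knockout, from 0.33 to 1.06 and from 0.015 to 0.38 for genotype in naive and injured neurites, and from -0.86 to -0.017 for the interaction. The replicate block called 146 genes for injury in wild type. The cause of these shifts was not tested. Groups of 2 and 3 libraries and values near 0 limit what can be called. Where a group was left with 1 library, it was assumed to vary like the others.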
